A study of Mus musculus with 8 samples.

Results

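The genes of the tricarboxylic acid (TCA) cycle and of pyruvate entry into it were taken as a list of 35 genes, fixed by symbol, from the 21883 RefSeq protein-coding genes on the mouse chromosomes. The list holds 15 enzymes of the cycle or isoforms of them, 6 subunits and assembly factors of succinate dehydrogenase, the 2 subunits of the mitochondrial pyruvate carrier, 3 parts of the pyruvate dehydrogenase complex, 6 kinases and phosphatases acting on that complex, and 3 enzymes of anaplerosis. A gene was called bound in a peak list when at least 1 peak that the annotation named for it lay within 20 kb of its transcription start site (TSS), and 33 of the 35 genes were bound in at least 1 list. They accounted for 194 of the peaks in the 4 lists.

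The study compared the chromatin binding of the nuclear receptor ERRα in WT mice and in ERRα 3SA mice (ERRα3SA), whose receptor carries mutations at phosphosites of its amino-terminal domain. ERRα ChIP-seq was done with an antibody from Abcam on skeletal muscle (gastrocnemius and soleus), pooled from 5 male mice per genotype, and on liver, pooled from 2 male mice per genotype. All groups were on the C57BL/6N background, 2 to 3 months old and collected at zeitgeber time 9, and the labels name no allele other than ERRα 3SA. Each of the 4 combinations of genotype and tissue gave 1 library, made from pooled immunoprecipitations, and 1 peak list called against its input DNA, so no difference between lists has a replicate check and no p-value is given. The labels give 3 immunoprecipitations per library, and the methods of the paper state another number. The ERRα3SA allele was in the germ line and thus in every tissue, and both tissues were used whole, so more binding per cell and more cells of a binding type cannot be told apart.

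In the TCA cycle, acetyl groups from pyruvate, fatty acids and amino acids are oxidised in the mitochondrial matrix, and the electrons pass to the respiratory chain. Pyruvate is carried across the inner mitochondrial membrane by MPC1 and MPC2 and is then converted to acetyl-CoA by the pyruvate dehydrogenase complex, which PDH kinases switch off and PDH phosphatases switch on. ERRα is known to bind the ERR response element (ERRE), with the core TCAAGGTCA, at many genes of oxidative metabolism, and skeletal muscle and liver both rely on the cycle, the liver also for glucose synthesis from its intermediates.

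The lists held 25427 peaks in WT muscle, 50647 in ERRα3SA muscle, 21813 in WT liver and 29040 in ERRα3SA liver, and 11216 to 23571 of them lay within 20 kb of a TSS. The reads were not analysed here, so the depth behind each list is unknown. Each peak carried a score of at least 30, and since scores of different lists are not on a common scale, a peak is described by its rank in its own list and by its top percent, which is its rank as a share of the list. Of 10 genes that mark muscle, 5 and 7 had a peak with a score of at least 100 in WT and ERRα3SA muscle and 2 and 3 in the livers. Of 10 liver genes 0 and 0 had one in muscle and 2 and 3 in liver. The liver lists thus held as many of the muscle genes as of the liver genes. The share of all genes with a peak of that score was not counted.

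The sequences behind the binding are shown first. The 300 bases around the centre of each called interval were searched on both strands for TCAAGGTCA, and the following ERREs lay there in the best-ranked peak of a gene in at least 1 list. Each is printed 5′ to 3′ on the strand that carries the motif, with the motif in capitals, from GRCm38.p6, the RefSeq build that matches mm10.
*Sdhd*, chr9:50603795-50603823, plus strand: tttcgagggcTCAAGGTCActctacaacc
*Idh3a*, chr9:54586721-54586749, plus strand: ggggacggcgTCAAGGTCAaggcggccag
*Idh3a*, chr9:54587251-54587279, plus strand: acaaatttgcTCAAGGTCAtacaggaggt
*Mpc1*, chr17:8282855-8282883, minus strand: ggtgggaagtTCAAGGTCAccactgagtc
*Cs*, chr10:128335449-128335477, minus strand: actctggagtTCAAGGTCAtctttggcta
*Mdh2*, chr5:135783889-135783917, plus strand: gatcatgggtTCAAGGTCAccctgggcta
*Pdp2*, chr8:104602289-104602317, plus strand: gattaagagtTCAAGGTCAtgctcagatg
*Pdpr*, chr8:111101425-111101453, minus strand: ccgcagaagtTCAAGGTCAtcctccgcta
*Suclg2*, chr6:95704787-95704815, minus strand: cagacatttgTCAAGGTCAttcctccaac
*Pdhb*, chr14:8192749-8192777, minus strand: caagggcaatTCAAGGTCAgcacctaggc

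Measured from the nearest start of a curated RefSeq transcript (accession prefix NM) to the middle base of the motif, the ERRE of *Sdhd* lay at +40 bp, those of *Idh3a* at +224 and +754 bp and that of *Mpc1* at -918 bp. The other genes carried theirs farther from such a start, with *Cs* at -2264 bp, *Mdh2* at +5254 bp, *Pdpr* at +6694 bp, *Pdp2* at +10831 bp, *Suclg2* at -11919 bp and *Pdhb* at -19771 bp. With the starts of all annotated transcripts, predicted ones included, the *Pdpr* ERRE lay at -373 bp, that of *Pdp2* at +10556 bp and that of *Pdhb* at -19460 bp, and the others did not move. A further set was chosen after the values were seen, to show an ERRE outside the central window (*Sdhb*), the second ERRE of *Sdhd*, and ERREs with a base other than C in their second position.
*Sdhb*, chr4:140961718-140961746, plus strand: cagggagaggTCAAGGTCAtaggatgagc
*Sdhd*, chr9:50602214-50602242, minus strand: gtcaaaaggtTCAAGGTCAtggggcaagg
*Cs*, chr10:128337427-128337455, minus strand: acgcgacgttTGAAGGTCActgaacactg
*Fh1*, chr1:175625397-175625425, plus strand: cactctgacgTGAAGGTCAccccggggag
*Mpc2*, chr1:165461921-165461949, plus strand: gggtttggagTAAAGGTCAtactttagtt
*Aco1*, chr4:40161230-40161258, minus strand: ctgtcatcgaTGAAGGTCAgggaagggct

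The *Sdhb* ERRE lay at +461 bp inside the called interval of all 4 lists, but outside the central 300 bases in each. The second *Sdhd* ERRE, at +1621 bp, was likewise inside intervals of all 4 lists. The variants of *Cs* at -286 bp, *Fh1* at +224 bp and *Mpc2* at +675 bp were covered in all 4 lists, and that of *Aco1* at +17979 bp in both liver lists and in neither muscle list.

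Most of the genes were bound in every list. In WT muscle 24 of 35 genes were bound (68.6%, 95% Wilson interval 52.0 to 81.4), beside 34.5% of all protein-coding genes. In ERRα3SA muscle the number was 29 (82.9%, 67.3 to 91.9), beside 48.0% of all genes in a list with more peaks. Both livers bound the same 31 genes (88.6%, 74.0 to 95.5), beside 30.0% of all genes in WT liver and 37.7% in ERRα3SA liver. The share of the pathway genes thus lay above that of all genes in each list. The intervals cover counting error only. Because the genes were chosen with earlier results of these data known, the intervals do not test the difference from the background.

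The 23 genes bound in all 4 lists, 65.7% of the genes beside 12.5% of all protein-coding genes, came from each of the roles. They were *Cs*, *Aco1*, *Idh2*, *Idh3a*, *Idh3b*, *Ogdh*, *Dld*, *Suclg1*, *Fh1*, *Mdh1* and *Mdh2* of the cycle, *Sdha*, *Sdhb*, *Sdhc* and *Sdhd*, *Mpc1* and *Mpc2*, *Pdhb* and *Dlat*, *Pdk2* and *Pdk4*, and *Pcx* and *Me3*. *Sdhaf2* and *Pdhx* were bound in none (5.71%, beside 33.2% of all genes). *Sdhaf2*, an assembly factor that attaches FAD to SDHA, was named for no peak at any distance, and *Pdhx*, which anchors the E3 enzyme in the pyruvate dehydrogenase complex, had a peak named for it only beyond 20 kb, at 48296 bp in WT muscle.

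**Figure D1:**
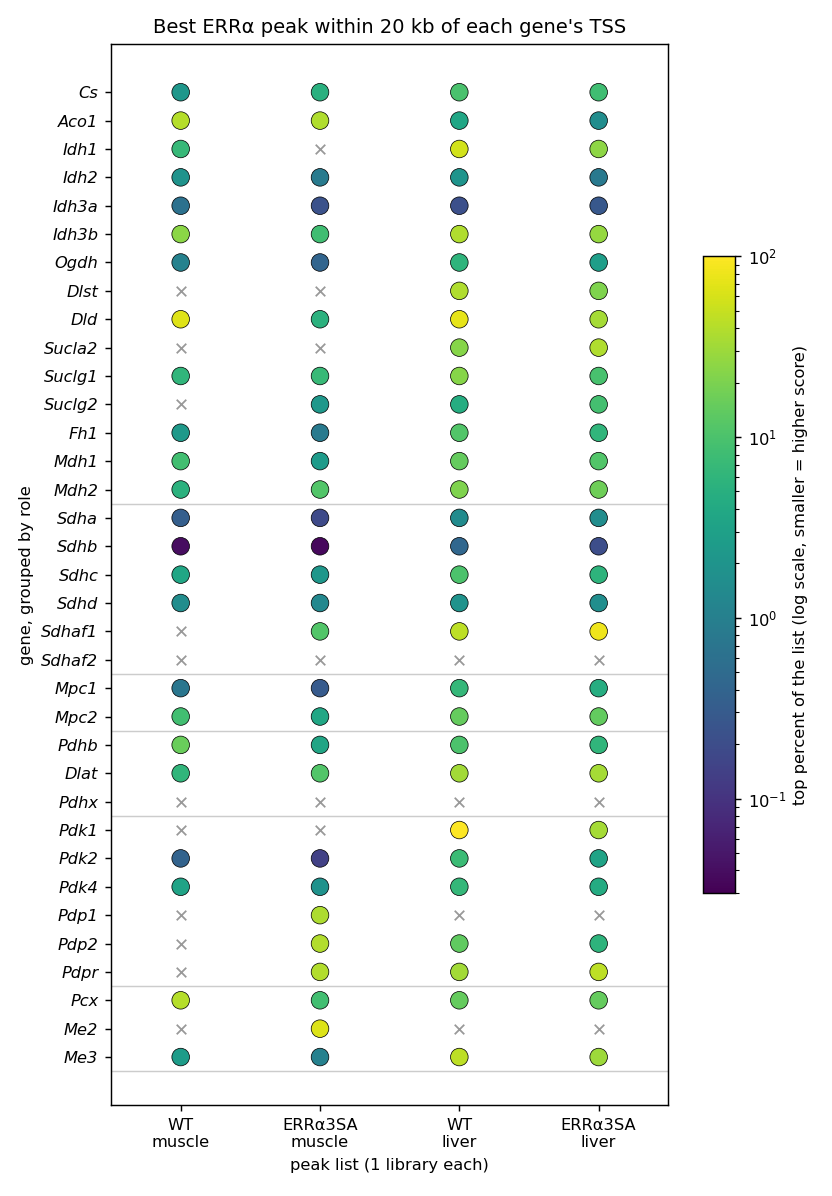
Best-ranked ERRα peak within 20 kb of the TSS of each of the 35 genes (rows, grouped by role) in the 4 peak lists (columns, 1 library each). Colour gives the top percent of the list on a log scale, with dark points for the highest scores, and a grey cross marks a gene with no peak. *Sdhb* has the darkest points, at 0.0393 and 0.0355 top percent in WT and ERRα3SA muscle, and *Sdhaf2* and *Pdhx* have crosses in all 4 columns.

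The peaks of these genes were also high in their lists. A peak in the top 5% of the list was found for 13 genes in WT muscle, 16 in ERRα3SA muscle, 7 in WT liver and 10 in ERRα3SA liver, beside 3.15%, 5.5%, 2.7% and 3.49% of all protein-coding genes. Across the bound genes the median top percent of the best peak was 3.48 in WT muscle, 3.5 in ERRα3SA muscle, 13.6 in WT liver and 8.89 in ERRα3SA liver, beside 39.1, 23.7, 37.6 and 34.0 for all bound genes. *Idh2*, *Idh3a*, *Sdha*, *Sdhb* and *Sdhd* were in the top 5% of all 4 lists.

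Succinate dehydrogenase, which oxidises succinate to fumarate and is also complex II of the respiratory chain, held the highest-ranked peak of the list of genes. *Sdhb*, encoding its iron-sulfur subunit, ranked 10 in WT muscle, 18 in ERRα3SA muscle, 96 in WT liver and 59 in ERRα3SA liver. The WT muscle interval, chr4:140960781-140962083, was centred 161 bp downstream of the TSS in an exon, and the ERRα3SA muscle interval was wider, at chr4:140959110-140962173, and also covered a separate WT muscle peak centred 1668 bp upstream. The best peaks of the 2 muscle genotypes therefore shared bases, but their centres lay more than 300 bp apart.

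*Sdha*, encoding the flavoprotein subunit, ranked 85 in WT muscle and 93 in ERRα3SA muscle, and 320 and 445 in WT and ERRα3SA liver, in intervals centred 154 to 216 bp downstream of its TSS. It was high in all 4 lists and ranked higher in muscle than in liver. *Sdhd*, a membrane anchor subunit, had a promoter peak ranked 391 and 661 in the muscles and 423 and 471 in the livers. A second *Sdhd* interval, centred 1525 to 1671 bp downstream of the TSS, which holds the second ERRE above, ranked 9573 in WT muscle, 2680 in ERRα3SA muscle and 792 in WT liver, and in ERRα3SA liver both places lay in 1 interval, at chr9:50601747-50604469.

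*Sdhc*, the other membrane anchor, ranked 919 in WT muscle, 1129 in ERRα3SA muscle, 2226 in WT liver and 1666 in ERRα3SA liver at its promoter. The assembly factor *Sdhaf1*, needed to insert iron-sulfur clusters into SDHB, differed from the subunits. It was not bound in WT muscle, and its best peaks ranked 5574 in ERRα3SA muscle, 12311 bp upstream, 9851 in WT liver, 574 bp upstream, and 23394 in ERRα3SA liver, 1448 bp downstream.

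Because the promoter peaks of *Sdhb*, *Sdha* and *Sdhd* had the lowest median top percent over the 4 lists among the genes with a RefSeq promoter sequence to print, their promoters are given from 250 bases before to 50 bases after the start, on the gene's strand. *Idh3a* ranked among them but had no entry in the promoter table. Capitals mark an ERRE, which reads here on the opposite strand.
*Sdhb* promoter, chr4:140961021-140961320, plus strand: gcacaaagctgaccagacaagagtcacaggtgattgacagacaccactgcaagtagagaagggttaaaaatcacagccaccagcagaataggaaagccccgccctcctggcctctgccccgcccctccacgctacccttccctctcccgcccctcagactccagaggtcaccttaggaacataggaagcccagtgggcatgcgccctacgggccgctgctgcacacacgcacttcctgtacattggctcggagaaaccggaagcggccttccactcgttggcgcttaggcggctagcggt
*Sdha* promoter, chr13:74350191-74350490, minus strand: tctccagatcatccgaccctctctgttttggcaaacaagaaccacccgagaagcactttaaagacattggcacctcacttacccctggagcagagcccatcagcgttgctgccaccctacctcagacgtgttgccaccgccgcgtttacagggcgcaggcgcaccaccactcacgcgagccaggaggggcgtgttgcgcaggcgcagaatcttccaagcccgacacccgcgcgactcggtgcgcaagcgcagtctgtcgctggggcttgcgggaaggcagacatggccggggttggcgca
*Sdhd* promoter, chr9:50603800-50604099, minus strand: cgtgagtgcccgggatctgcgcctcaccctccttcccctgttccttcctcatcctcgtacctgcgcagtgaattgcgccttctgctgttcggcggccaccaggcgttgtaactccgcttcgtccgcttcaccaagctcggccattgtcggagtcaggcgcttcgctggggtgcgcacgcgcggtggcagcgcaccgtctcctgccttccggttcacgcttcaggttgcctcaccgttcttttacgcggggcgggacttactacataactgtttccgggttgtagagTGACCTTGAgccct

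Of these 3 windows the *Sdhd* window alone held TCAAGGTCA, read in capitals on the other strand. Over the 41 promoters of 31 of the genes in the table it was the 1 match (2.44%), beside 0.334% of 21262 promoters of all protein-coding genes, and TNAAGGTCA, the same core with any second base, was found in that same promoter alone, beside 1.03%. The windows are 300 bases long, and the ERREs of *Sdhb* and *Fh1* listed above lie downstream of them.

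In the cycle itself, *Idh3a*, encoding the catalytic subunit of the NAD-dependent isocitrate dehydrogenase, stood out with ranks of 159 in WT muscle, 117 in ERRα3SA muscle, 47 in WT liver and 79 in ERRα3SA liver. Its intervals were centred 337 to 753 bp downstream of the TSS and covered both of its ERREs in all 4 lists. It was one of 4 genes with a better top percent in WT liver than in WT muscle. *Idh3b*, encoding another subunit of the same enzyme, had a promoter-proximal peak in each list, but its ranks were 6260, 4152, 8204 and 7934 in the order WT muscle, ERRα3SA muscle, WT liver and ERRα3SA liver.

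*Idh2*, the mitochondrial NADP-dependent isocitrate dehydrogenase, was bound far upstream of its TSS, at -15336 to -15081 bp, and within 1 kb of it in ERRα3SA muscle alone. The distal peak ranked 486 in WT muscle, 425 in ERRα3SA muscle, 438 in WT liver and 231 in ERRα3SA liver, so it was in the top 5% of every list. The peak within 1 kb was weak, at 434 bp downstream of the TSS and rank 32824. The interval annotation was intergenic at the distal site and intronic at the weak one.

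*Ogdh*, encoding the E1 enzyme of the 2-oxoglutarate dehydrogenase complex, had a promoter peak ranked 276 in WT muscle, 208 in ERRα3SA muscle, 1281 in WT liver and 791 in ERRα3SA liver. The genes of the other parts of that complex were bound more weakly. *Dlst*, the E2 enzyme, had no peak in either muscle list and best ranks of 8204 and 6120 in WT and ERRα3SA liver, and *Dld*, the E3 enzyme that the pyruvate dehydrogenase complex also uses, ranked 16894 in WT muscle, 2721 in ERRα3SA muscle, 16370 in WT liver and 9685 in ERRα3SA liver.

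*Cs*, encoding citrate synthase, the entry enzyme of the cycle, had a peak over its TSS in all 4 lists. That peak ranked 559 in WT muscle, 2617 in ERRα3SA muscle, 4147 in WT liver and 5533 in ERRα3SA liver, and its score was 178, 97, 89 and 105. In the livers alone a second, better-ranked interval lay upstream, at rank 2091 in WT and 2437 in ERRα3SA liver. The ERRα3SA interval there, chr10:128334440-128336221, held the ERRE at -2264 bp, and the shorter WT interval, chr10:128335608-128336157, began downstream of it.

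*Fh1*, which encodes fumarase, ranked 600 in WT muscle, 423 in ERRα3SA muscle, 2403 in WT liver and 1754 in ERRα3SA liver, centred 187 to 321 bp downstream of its TSS. *Mdh1*, the cytosolic malate dehydrogenase, ranked 2194, 1252, 3204 and 3231 in the same order. The mitochondrial form *Mdh2* had best ranks of 1338 in WT muscle, 5574 in ERRα3SA muscle, 4523 in WT liver and 4837 in ERRα3SA liver. Its promoter peak was present in all 4 lists, and an intronic peak 5060 to 5167 bp downstream, which holds the *Mdh2* ERRE, was present in all but ERRα3SA liver.

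Of the succinyl-CoA ligase genes, *Suclg1*, the subunit common to both forms, was bound at its promoter in all 4 lists at ranks of 1543, 3595, 4981 and 2706. *Suclg2*, the GTP-forming subunit, was not bound in WT muscle and ranked 1152 in ERRα3SA muscle, 995 in WT liver and 2583 in ERRα3SA liver. None of its peaks lay within 1 kb of a TSS. Its distances are from the nearer of curated starts at chr6:95718846 and, inside the gene, chr6:95692882. The ERRE at -11919 bp, measured from the inner start, lay in intronic intervals of the 3 lists. The interval with this ERRE was the best-ranked one in ERRα3SA muscle and WT liver. In ERRα3SA liver it ranked 3194, below the one 1904 bp downstream of the outer start. *Sucla2*, the ATP-forming subunit, was bound in the livers alone, at rank 4981 in WT and 11212 in ERRα3SA liver.

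Of the isoforms outside the mitochondrial matrix, *Aco1*, the cytosolic aconitase that also acts as iron regulatory protein 1, showed the clearest difference between tissues. An intronic peak 17892 to 17911 bp downstream of its TSS ranked 792 in WT liver and 443 in ERRα3SA liver and was not called in muscle. The muscle lists held only a weak peak close to the TSS, at rank 10219 in WT and 19200 in ERRα3SA muscle. *Idh1*, the cytosolic isocitrate dehydrogenase, was bound in WT muscle at rank 1771, in WT liver at 12528 and in ERRα3SA liver at 7231, and had no peak in ERRα3SA muscle.

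Among the genes of pyruvate entry, *Mpc1* was high in muscle. Its upstream promoter peak ranked 186 in WT muscle, 153 in ERRα3SA muscle, 1463 in WT liver and 1378 in ERRα3SA liver, and the ERRE at -918 bp lay in the intervals of all 4 lists. *Mpc2* ranked 2194 in WT muscle, 1889 in ERRα3SA muscle, 3204 in WT liver and 4182 in ERRα3SA liver. Both carrier genes were thus bound near the TSS in each list, *Mpc1* at the better rank in every one.

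*Pdhb*, encoding the E1 beta subunit of the pyruvate dehydrogenase complex, was bound at its promoter in all 4 lists, at ranks of 3962 in WT muscle, 3561 in ERRα3SA muscle, 5512 in WT liver and 4514 in ERRα3SA liver. A site 19660 to 19854 bp upstream, close to the limit of 20 kb, was better ranked in the 3 lists that held it, at 1773 in ERRα3SA muscle, 2203 in WT liver and 1739 in ERRα3SA liver. *Dlat*, the E2 enzyme, ranked 1543 and 5574 in WT and ERRα3SA muscle and 7108 and 9882 in the livers. The ERRα3SA liver value is of an intronic peak 10536 bp upstream, and the *Dlat* peak near the TSS, which the other values describe, ranked 18865 there.

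*Pdk2*, a PDH kinase widely expressed among tissues, had the second-best rank of the list of genes in ERRα3SA muscle. It ranked 98 in WT muscle, 73 in ERRα3SA muscle, 1644 in WT liver and 964 in ERRα3SA liver, in intervals centred 617 to 994 bp downstream of its TSS. A second *Pdk2* site, 11928 to 12514 bp downstream, was called in all 4 lists, at ranks of 951 and 3101 in the muscles and 16370 and 9882 in the livers. *Pdk4*, the kinase that rises on fasting, ranked 851, 928, 1463 and 1258 at its promoter, so its ranks lay closer together among the lists than those of *Pdk2*.

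*Pdk1* was bound in the livers alone and weakly, at rank 21383 of WT and 9882 of ERRα3SA liver, and at different places. The phosphatase genes, whose products reactivate the complex, had no peak within 20 kb in WT muscle, where the nearest one named for *Pdp1* lay 56850 bp from its TSS. *Pdp1* was bound in ERRα3SA muscle alone, at rank 18857 and 18595 bp downstream of the TSS. *Pdp2* had a muscle peak in ERRα3SA alone, at rank 19604, and an intronic liver peak 10815 to 10964 bp downstream, with its ERRE, at ranks of 2973 in WT and 1666 in ERRα3SA liver. *Pdpr*, encoding the regulatory subunit of the phosphatase, ranked 19604 in ERRα3SA muscle at the intronic ERRE and 7108 and 13000 in the livers near its TSS.

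Of the enzymes of anaplerosis, *Me3*, the mitochondrial NADP-dependent malic enzyme, was a gene of the muscle lists. Its promoter peak ranked 659 in WT muscle, 520 in ERRα3SA muscle, 12528 in WT liver and 8754 in ERRα3SA liver. *Pcx*, encoding pyruvate carboxylase, which makes oxaloacetate for gluconeogenesis, had best ranks of 10219 in WT muscle, 4392 in ERRα3SA muscle, 3204 in WT liver and 4219 in ERRα3SA liver, none in the top 5%. These were at different places and were measured from different curated starts. The WT muscle peak lay 9408 bp downstream of the start at chr19:4594319. The others were measured from the start at chr19:4510472. They lay 2896 bp downstream of it in WT liver and 455 and 616 bp upstream in ERRα3SA muscle and liver. *Me2*, the mitochondrial NAD-dependent malic enzyme, was bound in ERRα3SA muscle alone, at rank 32824.

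The question of the study was how the phosphosite mutations change ERRα binding. In muscle 21 genes (60.0%, beside 10.3% of all protein-coding genes) had a peak whose centre lay within 300 bp of a centre in the other genotype's list, and in liver 26 genes did (74.3%, beside 17.1%). *Suclg2*, *Sdhaf1*, *Pdp1*, *Pdp2*, *Pdpr* and *Me2* were bound in ERRα3SA muscle and not in WT muscle, which is 17.1% of the genes beside 22.4% of all genes, and *Idh1* was bound in WT muscle alone (2.86%, beside 8.95%). In liver 0 genes were bound in ERRα3SA alone, beside 15.0% of all genes, and 0 in WT alone, beside 7.29%. The numbers bound in 1 genotype alone were therefore at or below the background of genes.

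The ERRα3SA-only binding in muscle was mostly low in the longest of the 4 lists. Of the 6 genes, *Suclg2* ranked 1152 and *Sdhaf1* 5574, whereas *Pdp1*, *Pdp2*, *Pdpr* and *Me2* ranked between 18857 and 32824 of 50647. When each list was shortened to its 21813 highest peaks, 26 genes remained bound in ERRα3SA muscle and 24 in WT muscle. The share of all genes bound in the shortened lists was not counted. The best ERRα3SA muscle peak of *Sdhaf1* lay 12311 bp upstream of its TSS. That of *Suclg2* was intronic and lay 11862 bp upstream of a start inside the gene.

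For the 23 genes bound in both muscle lists, the top percent of the best peak was better in ERRα3SA muscle for 19 and worse for *Cs*, *Suclg1*, *Mdh2* and *Dlat*. The rank itself, which does not divide by the length of the list, was better for 13 and worse for 10. In liver the top percent was better in ERRα3SA for 24 of 31 genes and the rank for 18. The direction for a gene thus turned with the scale for several of them, and only differences seen on both, such as *Dld* (16894 to 2721) and *Mdh1* (2194 to 1252) upwards and *Cs* (559 to 2617) and *Dlat* (1543 to 5574) downwards in muscle, keep their direction. Over all bound genes the median top percent of the best peak was 39.1 in WT and 23.7 in ERRα3SA muscle. In liver it was 37.6 in WT and 34.0 in ERRα3SA. How many of all genes moved in each direction was not counted, so whether these counts are particular to the pathway genes was not tested.

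**Figure D2:**
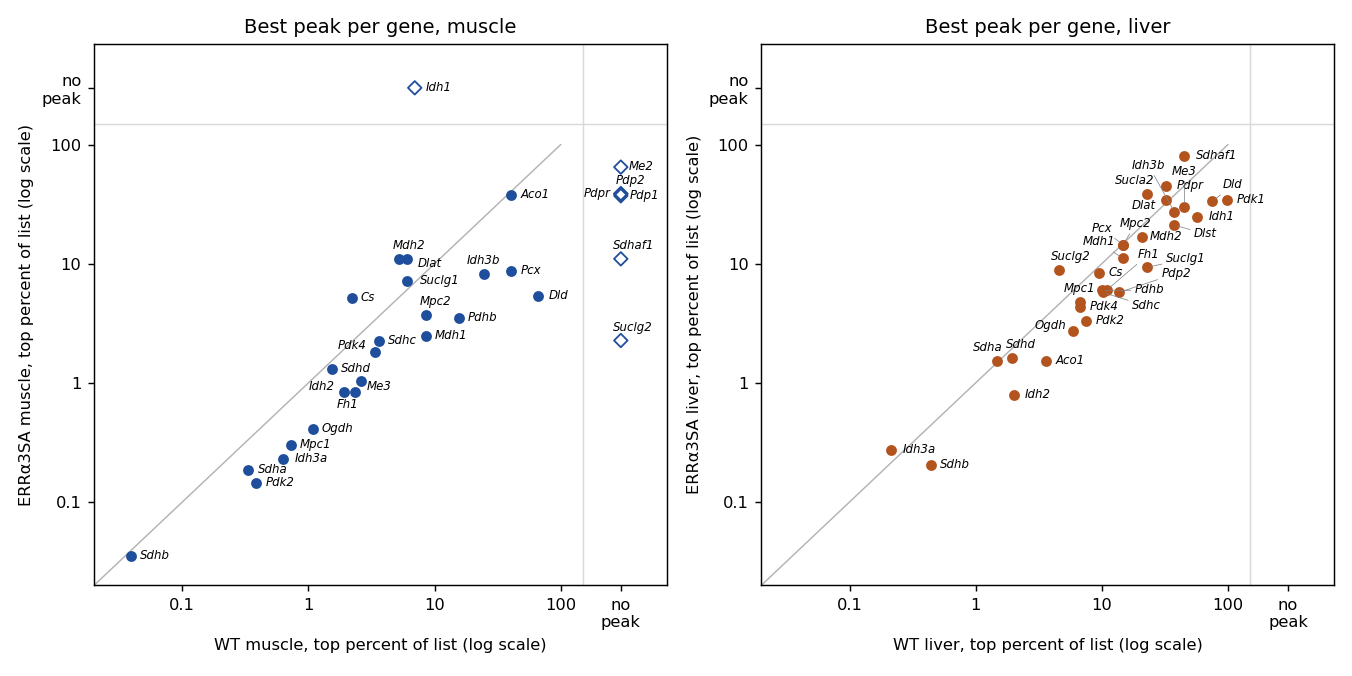
Top percent of the best peak per gene in WT (x axis) and ERRα3SA (y axis) for muscle (left) and liver (right), both on log scales where smaller values are higher-scoring peaks. Filled points are genes bound in both lists, open diamonds are genes bound in 1 of them, and the grey line marks equal values. In muscle 19 of 23 genes and in liver 24 of 31 lie below the line, and the diamonds in muscle are the 6 ERRα3SA-only genes and *Idh1*. The same count over all genes was not made.

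Between tissues, 20 of the 24 genes bound in WT muscle had a worse top percent in WT liver, and *Aco1*, *Idh3a*, *Pcx* and *Pdhb* a better one. By rank 18 were worse and 6 better. In the ERRα3SA lists 24 of 27 genes had a worse top percent in liver and *Aco1*, *Idh2* and *Pdp2* a better one, whereas by rank 16 were worse and 11 better. *Dlst*, *Sucla2*, *Suclg2*, *Sdhaf1*, *Pdk1*, *Pdp2* and *Pdpr* were bound in WT liver and not in WT muscle, and no gene was bound in WT muscle and not in WT liver. More of the genes were therefore bound in liver, while those bound in both tissues mostly lay higher in the muscle list. Of all protein-coding genes, 34.5% were bound in WT muscle and 30.0% in WT liver. In ERRα3SA the shares were 48.0% in muscle and 37.7% in liver. How many of all genes were bound in only muscle or only liver, or lay higher in muscle, was not counted. Whether these tissue counts are particular to the pathway genes was thus not tested.

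**Figure D3:**
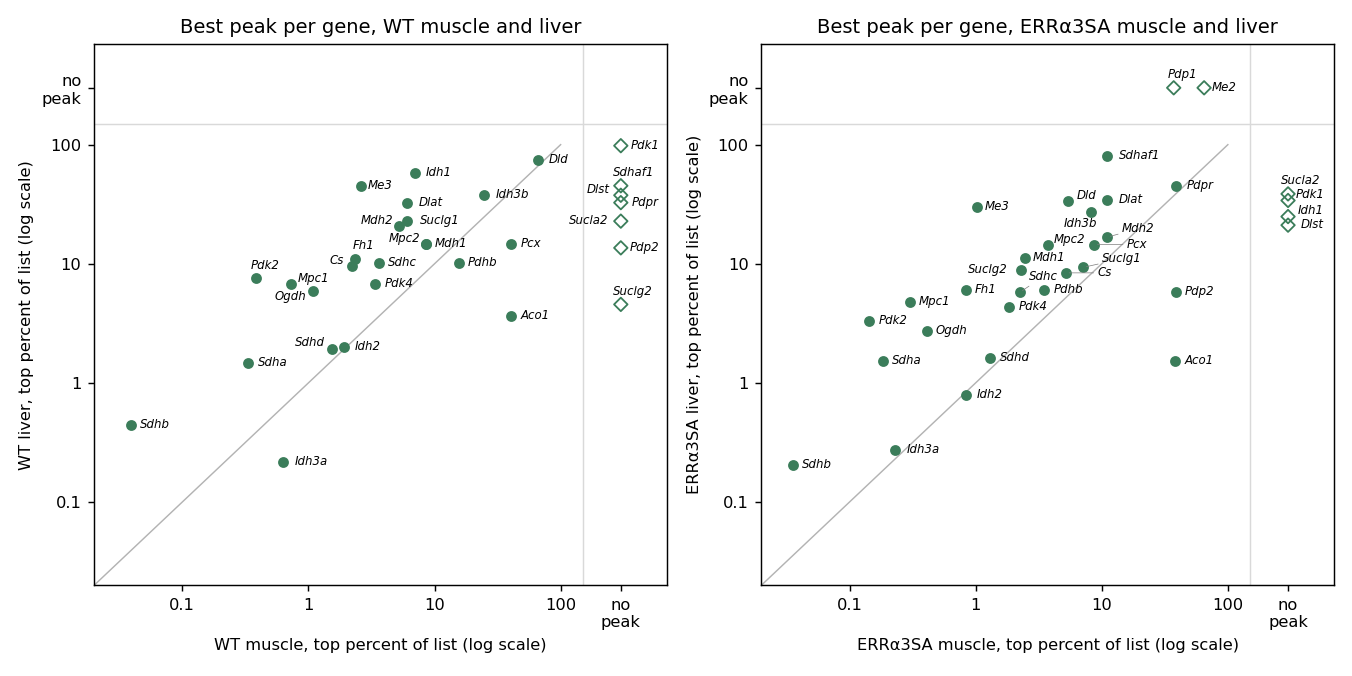
Top percent of the best peak per gene in muscle (x axis) and liver (y axis) for WT (left) and ERRα3SA (right), on log scales with smaller values for higher-scoring peaks. Points above the grey line of equal values rank relatively higher in muscle, open diamonds are genes bound in 1 of the 2 lists. *Aco1* lies far below the line in both panels, and *Me3*, *Pdk2*, *Mpc1* and *Sdhb* lie above it. How all genes divide between the sides of the line was not counted.

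The peaks of these genes were close to the TSS more often than other peaks. Within 1 kb of the TSS lay 66.7% of them in WT muscle, 48.0% in ERRα3SA muscle, 53.8% in WT liver and 50.8% in ERRα3SA liver, beside 26.2%, 17.4%, 20.6% and 22.6% of all peaks within 20 kb. Counted by gene, 22, 23, 26 and 27 of the 35 had a peak within 1 kb. These are 62.9%, 65.7%, 74.3% and 77.1%, beside 13.7%, 16.2%, 9.25% and 14.4% of all protein-coding genes. The CpG content of these promoter-proximal peaks had medians of 0.0655, 0.0595, 0.0585 and 0.0584, beside 0.0621, 0.0505, 0.0454 and 0.0474 for all such peaks, as the fraction of the interval.

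**Figure D4:**
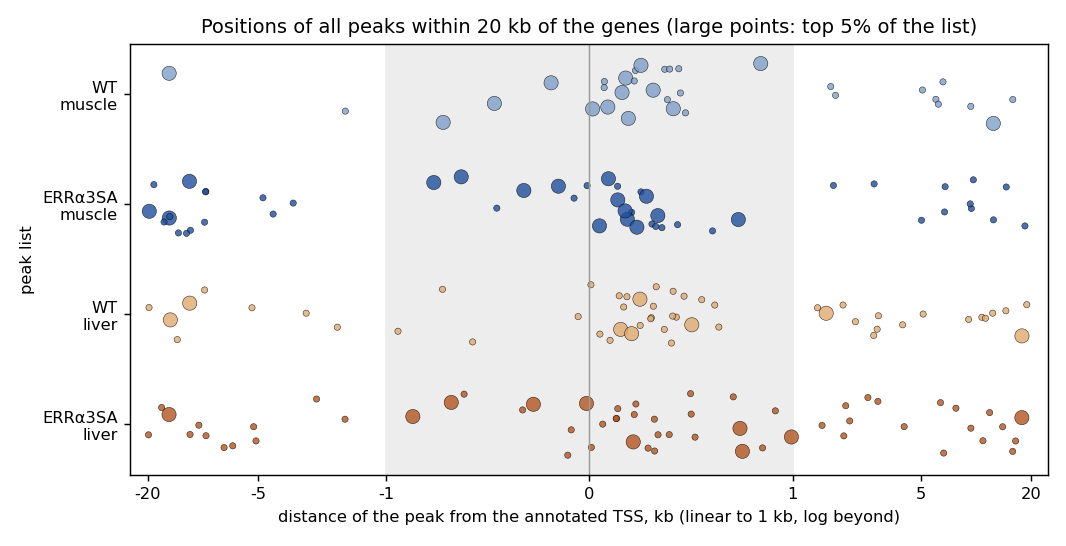
Distance from the annotated TSS of every ERRα peak within 20 kb of the genes, 1 row of points per peak list with random vertical scatter. The x axis is linear within 1 kb of the TSS, shaded, and logarithmic beyond, and large points are peaks in the top 5% of their list. In muscle most large points lie in the shaded band. Large muscle points outside it are *Idh2* in both lists, *Pdk2* in WT, and *Suclg2* and *Pdhb* in ERRα3SA. In liver the *Idh2* and *Aco1* peaks are among the large points outside it.

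When the intervals of the 4 lists were merged wherever they shared at least 1 base, the genes held 92 sites, 32 of them within 1 kb of a TSS and 60 farther away. The sites of all genes were not merged, so these site counts and those that follow have no background beside them. Whether their pattern is particular to these genes was not tested. The promoter-proximal sites were mostly common to the lists, with 21 of 32 called in all 4, at *Aco1*, *Cs*, *Dlat*, *Dld*, *Fh1*, *Idh3a*, *Idh3b*, *Mdh1*, *Mdh2*, *Me3*, *Mpc1*, *Mpc2*, *Ogdh*, *Pdhb*, *Pdk2*, *Pdk4*, *Sdha*, *Sdhb*, *Sdhc*, *Sdhd* and *Suclg1*. The distal sites were mostly called once, with 44 of 60 in 1 list. Of those 44, 17 were in ERRα3SA muscle, 14 in ERRα3SA liver, 7 in WT liver and 6 in WT muscle.

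Among the 16 distal sites called in more than 1 list, those at *Idh2* and *Pdk2* were in all 4, and 8 were in both livers and neither muscle, at *Aco1*, *Cs*, *Idh2*, *Idh3b*, *Mpc1*, *Pcx*, *Pdp2* and *Suclg2*. A further 4, at *Pdhb* and *Suclg2*, were in both livers and ERRα3SA muscle. No distal site was called in both muscle lists and neither liver.

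Sharing between genotypes moved with the score. Of the peaks of these genes, 72.7% in WT muscle, 48.0% in ERRα3SA muscle, 65.4% in WT liver and 57.6% in ERRα3SA liver had a centre within 300 bp in the other genotype, beside 23.4%, 12.9%, 49.2% and 34.2% of all peaks within 20 kb. A score of at least 100 was reached by 42.4%, 32.0%, 40.4% and 44.1% of them, beside 6.13%, 6.76%, 20.2% and 22.5%. Among peaks of at least that score the shared share was 92.9%, 81.2%, 76.2% and 80.8% for these genes and 81.8%, 70.3%, 86.5% and 80.7% for all, so within this class the share for these genes was above that for all peaks in both muscle lists, below it in WT liver and nearly equal to it in ERRα3SA liver. Among peaks of a lower score it was 57.9%, 32.4%, 58.1% and 39.4% for these genes and 19.6%, 8.76%, 39.7% and 20.7% for all, so there it was above that for all peaks in each list.

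An exact TCAAGGTCA near the interval centre was not a general feature of the peaks. In its own de novo motif search the paper ranked the ERRE first by enrichment in every condition. That is another measure than the share of exact matches given here. TCAAGGTCA lay in the central 300 bases of a peak of 2 of the 35 genes in WT muscle, *Sdhd* and *Mdh2*. These are 5.71%, beside 2.16% of all protein-coding genes. It did so for 5 genes in ERRα3SA muscle (14.3%, beside 4.27%) and 6 in WT liver (17.1%, beside 6.33%). In ERRα3SA liver it did so for 6 (17.1%, beside 8.75%). The share of the 35 genes was thus above that of all genes in each list, as was their share with any peak. By peak, 9.09%, 14.0%, 13.5% and 10.2% held it, beside 4.45%, 4.86%, 15.2% and 14.9% of all peaks within 20 kb.

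The number depended on the window, since an ERRE inside an interval could lie outside its central 300 bases, in all 4 lists at *Sdhb*, in both WT lists at *Idh3a* and in all but WT liver at *Mpc1*. With TNAAGGTCA over the whole interval, an alternative added after the values were seen, 30.3%, 26.0%, 32.7% and 28.8% of the peaks of these genes held an ERRE, beside 10.5%, 11.8%, 28.3% and 26.8% of all. The intervals of these genes were wider, with median widths of 686, 693, 649 and 633 bp beside 470, 461, 461 and 449 bp, and the part of width in the shares was not tested.

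By site, 4 of the 21 promoter-proximal sites common to all lists held TCAAGGTCA in an interval and 7 held TNAAGGTCA. Of the distal sites in more than 1 list 7 of 16 held TCAAGGTCA, and of those in 1 list 2 of 44 did. No count over the sites of all genes stands beside these. Over all intervals 23 ERREs of either form were found at 17 of the genes, and 15 of these, at 12 genes, were TCAAGGTCA.

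**Figure D5:**
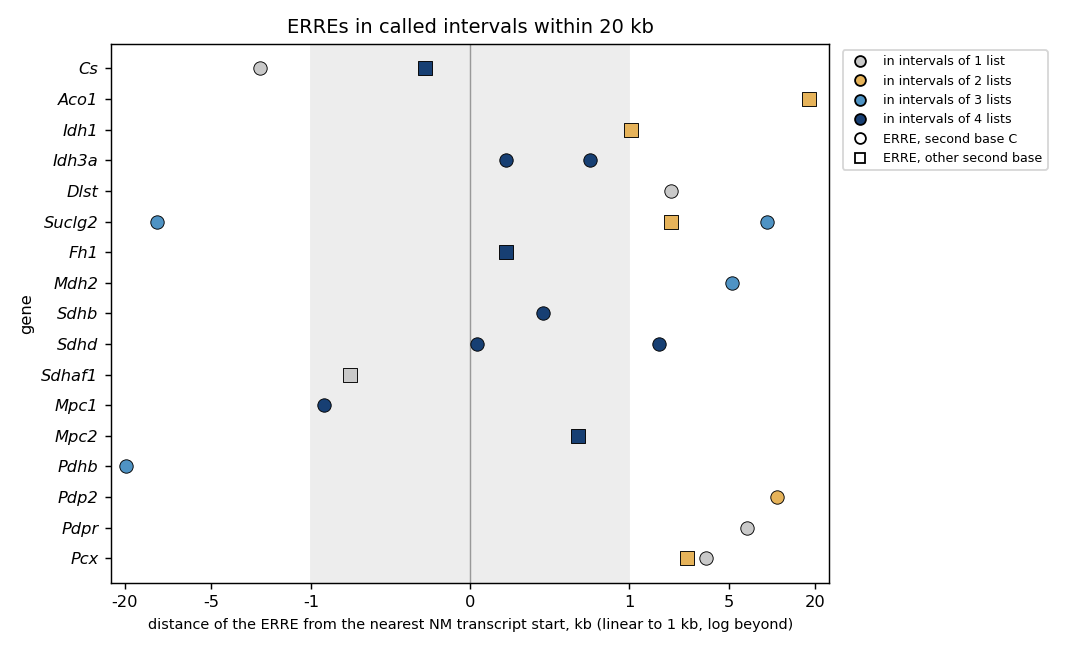
Position of each of the 23 ERREs in called intervals, relative to the nearest start of a curated (NM) transcript of its gene, with 1 row per gene and an x axis that is linear within 1 kb (shaded) and logarithmic beyond. Circles are TCAAGGTCA, squares have another second base, and colour gives the number of lists whose intervals cover the ERRE. The dark points, covered in all 4 lists, lie at *Cs*, *Idh3a*, *Fh1*, *Sdhb*, *Sdhd*, *Mpc1* and *Mpc2*, all within 1 kb except the second one of *Sdhd*.

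Of 12 other genes of the pathway that are not in the list of 35, 7 were bound in each muscle list, 6 in WT liver and 9 in ERRα3SA liver, beside 34.5% of all protein-coding genes in WT muscle, 48.0% in ERRα3SA muscle, 30.0% in WT liver and 37.7% in ERRα3SA liver. *Pdha1*, the E1 alpha subunit of the pyruvate dehydrogenase complex, was bound in ERRα3SA liver alone, at rank 18865, and *Pck1*, the first committed enzyme of gluconeogenesis, ranked 1969 in WT and 1531 in ERRα3SA liver and 16894 and 7648 in the muscles.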

How the data were processed

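The 4 deposited peak lists of the ERRα ChIP-seq were used, each from 1 library, and the 4 input samples entered only through the authors' peak calling. According to the methods and the submitters' processing notes, the authors used Trimmomatic 0.36 to trim the paired-end reads and BWA 0.7.12 to map them to mm10, removed duplicates with Picard 2.0.1, called peaks with MACS2 2.1.1.20160309 against input DNA, removed those on scaffolds and the mitochondrial chromosome, and annotated the rest with HOMER 4.9.1. The deposited score is the number the authors' peak caller gave, whose scale is not stated. It decides the ranks, and tied scores took the best rank of the tie. The CpG and GC contents are deposited as fractions of the interval from 0 to 1, although headed with a percent sign. Start, end and distance to the TSS in bp are as deposited.

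Every interval lay inside the GRCm38 chromosomes, and GC contents computed anew on GRCm38.p6 matched those deposited to within a fraction of 1e-05 for all but 1 to 3 peaks per list. A peak was given to the gene that the authors' annotation names, within 20 kb of the TSS. The background was 21883 RefSeq protein-coding genes matched by gene ID. A peak counted as shared if the centre of a peak in the other list was at most 300 bp away, and sites were intervals sharing at least 1 base. The ERRE was searched on both strands of GRCm38.p6, and sequences and promoters are from RefSeq. Overlap and motif search were tested on simulated data. Shares have 95% Wilson intervals, for counting error only. With 1 library per group no test between lists was made.

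The 35 genes, the other gene lists and all settings were chosen with earlier results of these data known. Ranks are given for genes with a peak in the top 5% of a list, for genes bound in 1 genotype only, and for *Pdk4*, *Mpc1* and *Mpc2*, and the other genes are given more briefly. ERREs are printed for genes whose best peak holds TCAAGGTCA in its central 300 bp, and promoters for at most 3 genes. The ranks of *Idh3b*, *Dld*, *Dlst*, *Dlat*, *Mdh2*, *Suclg1*, *Sucla2*, *Pcx* and *Pdk1* were added after the values were seen. Alternatives were other score minimums, lists of equal length, other distances, centre distances, windows and motifs, and peaks named for neighbouring genes. The tools were samtools 1.23.1, matplotlib 3.10.9, pandas 2.3.3 and pysam 0.24.0, under Python 3.11.15, with scipy 1.17.1 and numpy 2.4.6 beneath them.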

Additional observations from a re-analysis of the deposited data

Results flagged for a closer look

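For *Idh3a* and *Suclg1* the best peak moved in opposite directions between the genotypes in the 2 tissues, both by rank and by top percent. The difference between the tissues was not tested, since each list is 1 library. *Idh3a* was at 0.625 top percent in WT muscle and 0.231 in ERRα3SA muscle, where it ranked better in ERRα3SA, and at 0.215 in WT liver and 0.272 in ERRα3SA liver, where it ranked worse. *Suclg1* was at 6.07 top percent in WT muscle and 7.1 in ERRα3SA muscle, and at 22.8 in WT liver and 9.32 in ERRα3SA liver.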

How the results depend on the processing

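Of 89 recomputed counts of bound genes, shared genes and genes with an ERRE, 66 stayed within 1.5 times the reported count and 23 moved further. With a score of at least 100 the bound genes were 13 in WT muscle, 16 in ERRα3SA muscle and 19 in WT liver, 11 were bound in all 4 lists, genes shared by the genotypes were 11 in muscle and 15 in liver, and 1 gene had TCAAGGTCA in WT muscle. The ERRE counts, in the order WT muscle, ERRα3SA muscle, WT liver and ERRα3SA liver, were 1, 2, 2 and 3 within 5 kb of the TSS and 1, 2, 1 and 1 within 1 kb, since fewer peaks were searched. They were 9, 11, 14 and 14 with TNAAGGTCA in the whole interval, an alternative chosen after seeing the data, 5 and 8 in the muscles with TCAAGGTCA in the whole interval, and 11 in ERRα3SA liver with TNAAGGTCA in the central 300 bp. With centres within 100 bp, 13 genes were shared in liver, where the cause was not tested. In lists of equal length 24, 26, 31 and 30 genes were bound. The share of all protein-coding genes was not recomputed beside these counts. No paired analysis was possible because each group holds 1 library and no result comes from a test.

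Depth is unknown, and the lists hold only peaks past the authors' threshold, so a gene counted as not bound had no peak at that threshold. The annotation gives each peak to 1 gene. A call in 1 genotype alone is a difference between 2 libraries, and neither the antibody's yield nor the pooled mice can be told apart from the genotype.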

Other observations

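Several genes counted as not bound had a peak near a transcript start that the annotation named for a neighbour. Near *Pdhx* a peak named for *Apip* ranked 4837 in ERRα3SA liver, near *Sdhaf2* a peak named for *Cpsf7* ranked 29571 in ERRα3SA muscle, and near *Dlst* a peak named for *Prox2* ranked 7851 in ERRα3SA muscle. In WT muscle a peak named for *Clec18a* near *Pdpr* ranked 5802 and one named for *Alkbh6* near *Sdhaf1* ranked 10219. With such peaks included, 26 genes were bound in WT muscle, 31 in ERRα3SA muscle, 31 in WT liver and 32 in ERRα3SA liver. The share of all genes bound by this rule was not counted.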
